A study of Mus musculus with 15 samples.

Results

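The genes Slc1a1, Slc1a2, Slc1a3, Slc1a4 and Slc1a5 were followed in mechanically stretched mouse podocytes. They are 5 of the 55416 genes in the count table and were chosen by name, as members of the Slc1 family. The set was picked because Slc1a1 has the lowest p-value under low stretch, so all values of these genes from that comparison are a description, with no test. The cells were SVI, 1 conditionally immortalised line, differentiated and grown on flexible silicone membranes. A podocyte is an epithelial cell wrapped around the capillaries of the kidney glomerulus, and the stretch was meant as a model of glomerular hypertension. Experiment 1 held 6 samples at low stretch, labelled with a deflection of 5 to 6 mm, and 3 unstretched samples. Experiment 2 held 3 samples at high stretch, labelled 7 to 8 mm, and 3 unstretched samples. All 4 groups share the cell line, the differentiation and the membrane. The amplitude and the experiment form the same split, so they cannot be told apart.

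Slc1 proteins are sodium-coupled carriers of the plasma membrane. The glutamate branch takes up glutamate and aspartate against a steep gradient and holds Slc1a1 (EAAC1), Slc1a2 (GLT-1), Slc1a3 (GLAST), Slc1a6 (EAAT4) and Slc1a7 (EAAT5). The neutral amino acid branch exchanges alanine, serine, cysteine and, in the case of Slc1a5 (ASCT2), glutamine, and holds Slc1a4 (ASCT1) and Slc1a5. In the kidney Slc1a1 is best known from the brush border of the proximal tubule, where it reclaims filtered glutamate and aspartate. Glutamate and cysteine taken up by these carriers feed glutathione synthesis.

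The sequences around the start sites of 3 family genes are shown because 2 of them, Slc1a1 and Slc1a7, had lower counts under high stretch and the other, Slc1a4, did not pass the test. Each run holds 250 bases before the RefSeq start and the first 10 bases from it, 5′ to 3′ on the gene's strand, on the RefSeq build GRCm38.p6. Slc1a1 lies on the plus strand at chr19:28834885-28835144, Slc1a7 on the plus strand at chr4:107968156-107968415 and Slc1a4 on the minus strand at chr11:20332704-20332963. The RefSeq table held 6 of the 7 family genes, and Slc1a5 had no entry. Capitals mark matches, on either strand, to the GC box GGGCGG and to the amino acid response element core TGATGCAA.
Slc1a1: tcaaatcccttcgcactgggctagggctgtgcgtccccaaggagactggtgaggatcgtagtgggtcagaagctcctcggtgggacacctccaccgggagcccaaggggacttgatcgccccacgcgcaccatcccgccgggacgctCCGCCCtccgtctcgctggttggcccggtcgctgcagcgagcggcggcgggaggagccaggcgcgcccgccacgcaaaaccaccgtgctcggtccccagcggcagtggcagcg
Slc1a7: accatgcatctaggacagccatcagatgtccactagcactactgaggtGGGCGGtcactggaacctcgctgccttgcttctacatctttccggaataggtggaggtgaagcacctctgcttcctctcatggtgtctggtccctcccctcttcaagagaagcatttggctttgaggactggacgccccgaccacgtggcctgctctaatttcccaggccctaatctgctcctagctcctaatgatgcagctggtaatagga
Slc1a4: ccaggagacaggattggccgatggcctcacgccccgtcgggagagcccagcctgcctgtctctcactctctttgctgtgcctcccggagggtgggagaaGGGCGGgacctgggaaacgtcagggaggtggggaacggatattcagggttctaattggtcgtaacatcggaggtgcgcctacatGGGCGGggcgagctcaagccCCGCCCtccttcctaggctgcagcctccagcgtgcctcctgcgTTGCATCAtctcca
The Slc1a1 window was 70.4% G or C with 28 CG pairs, against 54.2% and 6 CG pairs for Slc1a7 and 63.8% and 16 CG pairs for Slc1a4. The median G or C content of all 32851 promoter windows in the table was 52.3%. Slc1a1 and Slc1a7 held 1 GC box each and Slc1a4 held 3, a motif present in 33.4% of all windows of this length. Slc1a4 alone of the 6 genes held the TGATGCAA core, which reads TTGCATCA on the printed strand and crosses the start from 4 bases before it to base 4. This core was in 0.828% of all windows. The TATA box TATAAA (12.7% of windows), the antioxidant response element core TGACNNNGC (10.7%) and the TEAD site GGAATG (13.2%) matched none of the 3 printed windows. The marked matches in these windows do not overlap each other. A match is a run of letters and was not tested for binding.

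The libraries held between 172.2 M and 396.7 M counts per sample. Levels are given as CPM, counts per 1 M counts of a TMM-scaled library, and the lowest Slc1a1 value, 0.0567 CPM, rested on 14 reads. Replicate 3 of the unstretched samples in experiment 2 stood apart. Its mitochondrial share was 2.60% of counts, against 1.14% to 1.63% in the other 5 samples of that experiment, and the number of genes called under high stretch went from 643 to 1421 without it. Of 12 podocyte markers, 5 or 6 reached 1 CPM in each group. Synpo, an actin-binding podocyte protein, lay at a mean of 319 to 662 CPM, whereas Nphs1 (nephrin, of the slit diaphragm) was at 0.292 to 0.683 CPM, and Tcf21 and Foxc2 were at 0 in some groups. Nothing in the labels says that replicates came from separate cultures, so p-values measure only the spread between these samples, which may be technical.

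Slc1a1, the epithelial and neuronal glutamate and cysteine carrier, was lower in every stretched sample than in every unstretched sample of the same experiment. In the unstretched samples of experiment 2 it lay at 0.837, 1.26 and 3.09 CPM. The 3 high-stretch samples had 0.0567, 0.114 and 0.117 CPM. The unstretched values spread widely and replicate 3 was the highest, yet the groups did not overlap. Reads behind these values were 130, 170 and 848 in the unstretched samples and 14, 16 and 29 under high stretch. In edgeR's quasi-likelihood test Slc1a1 fell by 4.19 on the log2 scale (SE 0.588, n = 3 against 3, adjusted p = 0.0121), an 18.2-fold difference. It ranked 144th by p among 18524 genes tested, and 33 genes, 0.178% of those tested, had a log2 fold change as low or lower. The median log2 fold change of all genes was -0.0222. In bulk RNA, fewer cells that express a gene and less RNA per cell cannot be told apart.

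The size and the call depended on single samples. Without the unstretched replicate 3, Slc1a1 fell by 3.41 on the log2 scale with an adjusted p of 0.000561. Without high-stretch replicate 1 the adjusted p was 0.0783, and without high-stretch replicate 3 it was 0.0835, so the call was lost in both. The direction held in each of these fits, with log2 fold changes from -4.52 to -3.41 over the 6 samples left out in turn. Set against the unstretched sample with the neighbouring position code, the high-stretch samples had 6.76%, 9.01% and 3.79% of its Slc1a1 CPM.

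Under low stretch, the comparison the choice rested on, the unstretched samples had 1.05, 0.964 and 0.976 CPM of Slc1a1. The 6 low-stretch samples ranged from 0.105 to 0.184 CPM with a median of 0.137. Every low-stretch sample lay far below every unstretched sample, and the 3 unstretched values were close to each other. The log2 fold change was -2.79 (SE 0.182, n = 6 against 3), a 6.91-fold difference, and 34 genes (0.157% of those tested) were as low or lower. The position-matched low-stretch values were 10.9% to 17.6% of the unstretched sample. The unstretched means of the 2 experiments were 0.998 ± 0.0489 CPM (SD, n = 3) and 1.73 ± 1.20 CPM (SD, n = 3), and the ranges overlapped.

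The stretch effect on Slc1a1 was not shown to differ between the experiments. The contrast of high minus low stretch was -1.41 on the log2 scale (SE 0.537), with an unadjusted p of 0.0183 and an adjusted p of 1.0 in edgeR, and it was -0.611 without the unstretched replicate 3 of experiment 2. No gene among 22015 passed this test (0.0%), with 547 (2.48%) at an unadjusted p under 0.05, and DESeq2 also called 0. The low-stretch values behind this contrast were used to choose the genes.

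**Figure D1:**
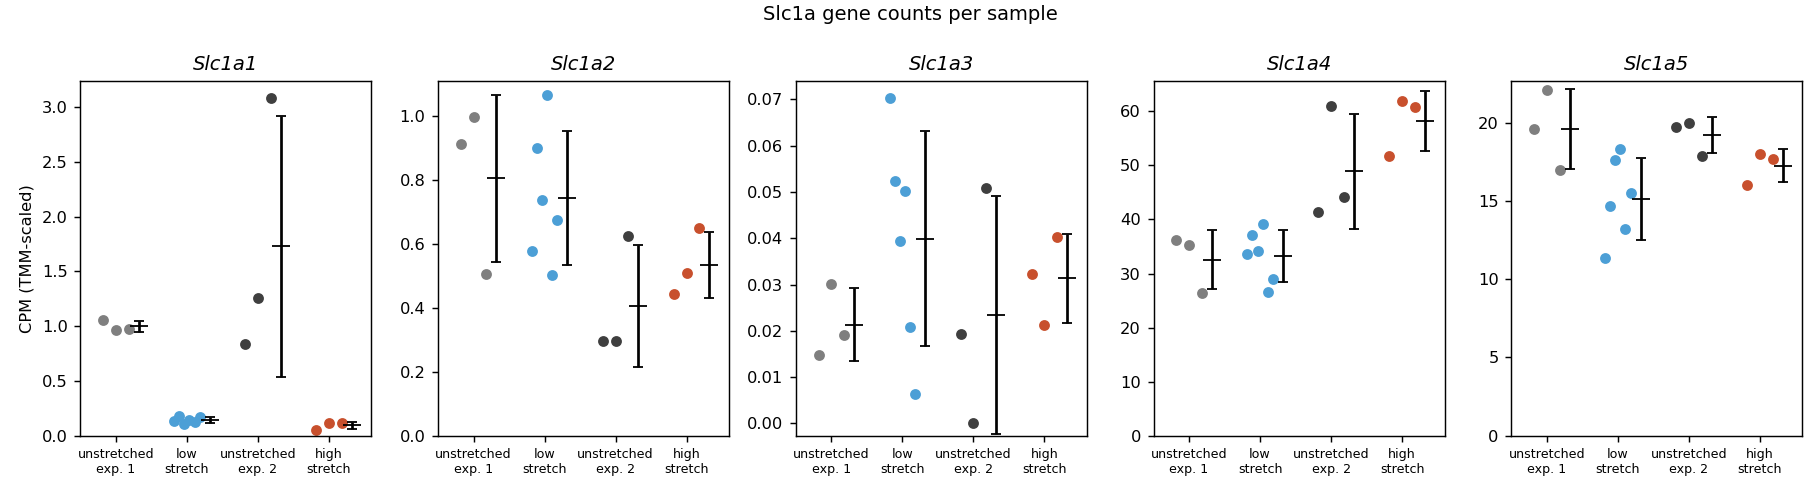
CPM on TMM-scaled totals of the 5 genes in each sample, by group, on a linear axis of its own for each gene. Points are samples and the bar beside them is the mean with its SD (n = 3, 6, 3 and 3). Slc1a1 lies under 0.2 CPM in all 9 stretched samples and above 0.8 CPM in all 6 unstretched ones, while the other 4 genes overlap between stretched and unstretched samples.

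Slc1a2 and Slc1a3, the main glutamate carriers of astrocytes, were scarce throughout. Slc1a2 had 0.296, 0.296 and 0.626 CPM in the unstretched samples of experiment 2 and 0.445, 0.511 and 0.649 CPM under high stretch. The groups overlapped, and the log2 fold change of 0.39 (SE 0.373) did not pass the test (edgeR adjusted p = 0.783). Under low stretch Slc1a2 ranged from 0.504 to 1.07 CPM with a median of 0.708, against 0.507, 0.912 and 0.997 CPM in the unstretched samples, with a log2 fold change of -0.12 (SE 0.277).

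Slc1a3 was close to the floor, with 0 to 23 reads per sample. In experiment 2 it had 3, 0 and 14 reads unstretched and 8, 3 and 10 under high stretch. It did not pass the filter on low counts there and was not tested. In experiment 1 it had 5, 10 and 6 reads unstretched and 2 to 23 under low stretch. It passed the filter of 0.0345 CPM there through 4 of the 6 low-stretch samples and none of the unstretched ones, so its log2 fold change of 0.89 (SE 0.592) is a description only.

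Slc1a4 and Slc1a5, the neutral amino acid exchangers, were the abundant members. Slc1a4 had 41.5, 61.0 and 44.2 CPM in the unstretched samples of experiment 2 and 51.8, 62.0 and 60.7 CPM under high stretch. The ranges overlapped. Each high-stretch sample was at 102% to 138% of the unstretched sample with the neighbouring position code, a match the labels do not state. The log2 fold change of 0.27 (SE 0.197) did not pass (edgeR adjusted p = 0.673). Under low stretch Slc1a4 ranged from 26.6 to 39.2 CPM with a median of 33.8, inside and around the unstretched values of 26.4, 35.3 and 36.1 CPM, and the log2 fold change was 0.02 (SE 0.142).

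Slc1a5, the glutamine carrier, had 19.7, 20.0 and 17.9 CPM in the unstretched samples of experiment 2 and 16.0, 18.02 and 17.7 CPM under high stretch. The groups overlapped by 1 unstretched value, and the log2 fold change of -0.14 (SE 0.171) did not pass (edgeR adjusted p = 0.855). Under low stretch Slc1a5 ranged from 11.3 to 18.3 CPM with a median of 15.1, against 19.6, 22.1 and 17.0 CPM unstretched. The log2 fold change was -0.38 (SE 0.152, adjusted p = 0.16), with overlapping groups. With the runs of neighbouring position codes as a block it was -0.39 (SE 0.0959, adjusted p = 0.0127), which changes the call, and both are given as a description. Each of the 6 low-stretch samples was below its position-matched unstretched sample, at 57.9% to 91.1%, and so was each of the 3 high-stretch samples, at 81.3%, 90.2% and 99%. The labels do not say that position codes pair the samples, and the share of all genes that did the same was not counted.

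Counted over the members, 1 of the 4 that passed the filter was called under high stretch, Slc1a1, where 3.47% of all genes tested were called, 2.16% lower and 1.31% higher. The groups did not overlap for 1 of these 4, also Slc1a1, against 20.6% of all genes, and 10.7% of all genes were lower without overlap. Under low stretch 1 of 5 was called (2 with the block on neighbouring codes, Slc1a5 being added), with 5.45% of all genes called, 3.6% lower and 1.85% higher. The low-stretch groups did not overlap for 1 of 5, with 15.3% of all genes, and 7.47% of all genes were lower without overlap. The low-stretch counts follow from the choice of genes.

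**Figure D2:**
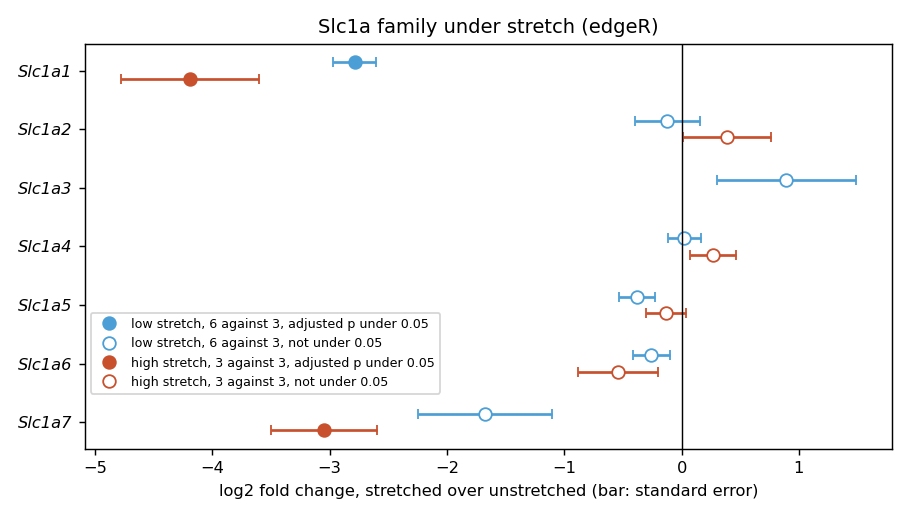
Log2 fold change of stretched over unstretched samples for the 7 family genes, with standard error bars, from edgeR. Filled points passed an adjusted p of 0.05. Slc1a1 sits at -4.19 (high stretch) and -2.79 (low stretch), Slc1a7 at -3.05 and -1.68, and the other genes lie between -0.54 and 0.89. Slc1a3 has no high-stretch point because it was not tested there.

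The other 2 glutamate carriers of the family, outside the set, differed from each other. Slc1a6 had 87.2, 105 and 48.3 CPM unstretched and 36.0, 76.9 and 50.5 CPM under high stretch, overlapping groups with a log2 fold change of -0.54 (SE 0.342, edgeR adjusted p = 0.592). Slc1a7 had 2.22, 2.02 and 1.89 CPM unstretched and 0.121, 0.440 and 0.190 CPM under high stretch. The Slc1a7 groups did not overlap, and its counts fell by 3.05 on the log2 scale (SE 0.45, edgeR adjusted p = 0.0142), a call lost without high-stretch replicate 1 (-2.71, adjusted p = 0.0628), high-stretch replicate 3 (-2.86, 0.103) or unstretched replicate 1 (-3.00, 0.0653). The transcript estimates gave no such comparison. The TPM (the length-corrected transcript abundance) of Slc1a7 was listed at 0 in 2 of the 3 unstretched samples and in all 3 high-stretch samples of experiment 2, although these samples held 30 to 519 reads assigned to the gene. Genes nearby on the chromosome fell as well, Podn (podocan, a matrix proteoglycan) by 2.38 (adjusted p = 0.00641) and Cpt2 (carnitine palmitoyltransferase, of mitochondrial fatty acid import) by 1.20 (adjusted p = 0.0322), and their part in the Slc1a7 counts was not tested.

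No neighbour of Slc1a1 passed the test. The kit marks strand, but whether the counting used it is not given in the sources used here. The gene 4430402I18Rik and the pseudogene Gm5822, which the annotation lets overlap Slc1a1 on the other strand, had log2 fold changes of -0.34 (adjusted p = 0.741) and -0.12 (adjusted p = 0.93) under high stretch. The nearby genes Glis3, a transcription factor, and Plpp6, a lipid phosphatase, had -0.29 (adjusted p = 0.816) and -0.02 (adjusted p = 0.988).

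Genes can be compared with each other on the per-length TPM scale. Among the unstretched samples of experiment 1 the order was Slc1a6 (35.3 ± 4.86 TPM, SD, n = 3), Slc1a4 (16.5 ± 2.84), Slc1a5 (15.4 ± 1.66), Slc1a1 (1.06 ± 0.104), Slc1a7 (1.05 ± 0.306), Slc1a2 (0.235 ± 0.0473) and Slc1a3 (0.0551 ± 0.0182). The ranges of Slc1a4 and Slc1a5 overlapped, as did those of Slc1a1 and Slc1a7, and the other neighbours in this order were apart. In the unstretched samples of experiment 2 Slc1a4 (16.4 ± 3.17 TPM, SD, n = 3) was above Slc1a5 (9.66 ± 1.76) with no overlap, and Slc1a1 was at 0.665, 0.754 and 2.95 TPM, above every Slc1a2 value (0.0743 to 0.470 TPM). Under high stretch Slc1a1 was at 0.0407, 0.105 and 0.111 TPM and Slc1a2 at 0.202, 0.222 and 0.230 TPM, so Slc1a2 then stood above Slc1a1 in all 3 samples. Under low stretch the TPM of Slc1a1 (0.114 to 0.188) overlapped that of Slc1a2 (0.1501 to 0.658). The TPM of Slc1a5 was 13.7 to 17.0 unstretched and 8.33 to 12.5 under low stretch, groups that did not overlap on this scale but did in CPM. How many of all genes were apart in TPM was not counted.

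Slc1a6, a carrier best known from cerebellar Purkinje cells, held most of the glutamate carrier RNA. Of the summed TPM of Slc1a1, Slc1a2, Slc1a3, Slc1a6 and Slc1a7, it made up 92.0% to 98.6% in the unstretched samples of experiment 2 and 98.8% to 99.3% under high stretch. The share of Slc1a1 in this sum was 1.22% to 6.60% unstretched and 0.158% to 0.348% under high stretch. In experiment 1 it was 2.68% to 3.07% unstretched and 0.474% to 0.743% under low stretch. The summed TPM itself was 44.7 to 59.3 unstretched and 25.8 to 43.0 under high stretch, with no overlap, and 34.2 to 43.6 against 21.9 to 38.6 in experiment 1, with overlap. For this sum too, the share of all genes apart in TPM was not counted.

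**Figure D3:**
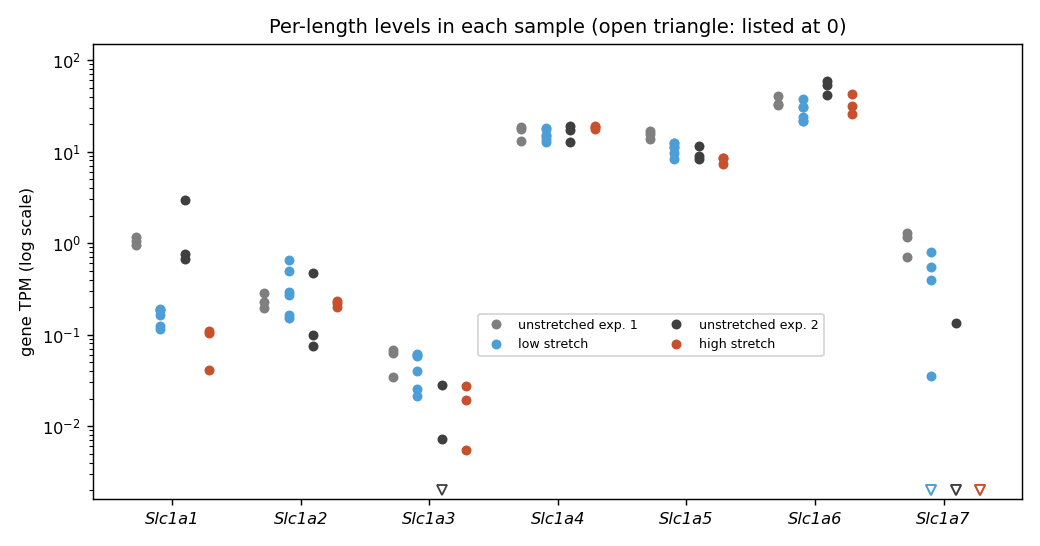
Gene TPM of the 7 family genes in each sample on a log axis, coloured by group. Open triangles at the bottom edge stand for samples in which the gene is listed at 0. Slc1a6, Slc1a4 and Slc1a5 lie above 7 TPM in all 15 samples, and Slc1a1 is the member whose stretched and unstretched points are apart in both experiments.

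Transcripts were examined because the study is about splicing. Slc1a1 was below the 1 TPM minimum in the mean over samples, so its transcript usage was not tested. Its main transcript, the protein-coding ENSMUST00000025875 with 12 exons and 3800 bases, had 0.767 ± 0.0247 TPM unstretched (SD, n = 3) and 0.115 ± 0.0342 TPM (SD, n = 6) when stretched at low amplitude. In experiment 2 it had 1.13 ± 0.989 TPM unstretched (SD, n = 3) and 0.0674 ± 0.0333 TPM under high stretch (SD, n = 3). It held a mean of 72.8% to 83.7% of the gene's TPM in the 4 groups, so the lower level was in the transcript that encodes the carrier. The retained-intron transcript ENSMUST00000162189 held most of the rest, at group means of 16.2% to 19.2%. It was listed at 0 in 4 of 6 low-stretch samples and 2 of 3 high-stretch samples. The same held for 1 of 3 unstretched samples of experiment 2. Under low stretch its share ran from 0% to 54.8% per sample and that of the main transcript from 43.2% to 100%, so these shares were not resolved.

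Slc1a4 and Slc1a5 were tested, with 2 transcripts each. Slc1a4 was split between ENSMUST00000109594, at a mean of 75.2% to 82.9% of its TPM, and ENSMUST00000004634, at 17.1% to 24.8%, both protein coding with 8 exons. The change under high stretch on the log2 usage scale was 0.00 (SE 1.53, limma adjusted p = 1.0), an error wide enough that the usage of Slc1a4 could not be resolved. Slc1a5 was split between the protein-coding ENSMUST00000108496 and the retained-intron ENSMUST00000127401. The protein-coding share was 48.3% ± 5.02 (SD, n = 3) unstretched and 54.6% ± 4.37 (SD, n = 6) at low amplitude. In experiment 2 it was 70.0% ± 13.7 (SD, n = 3) unstretched and 77.9% ± 8.10 (SD, n = 3) at high amplitude. The retained-intron transcript held 40.0% ± 2.09 and 34.4% ± 3.24 in experiment 1, and 25.7% ± 11.7 and 17.8% ± 5.20 in experiment 2. The usage change of the retained-intron transcript was -0.58 under high stretch (SE 0.50, limma adjusted p = 0.82) and -0.34 under low stretch (SE 0.124). None of the 4 member transcripts tested passed under high stretch. Over all genes 0 of 23408 transcripts (0.0%) passed under high stretch, with 1881 (8.04%) at an unadjusted p under 0.05, and 4 of 27720 (0.0144%) passed under low stretch.

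Around the carriers, 105 genes of glutamate and amino acid transport, metabolism, sensing and response were counted. Under high stretch 2 of the 76 tested passed (2.63%, near the 3.47% of all genes), both lower: Slc1a7 and Prodh, the proline oxidase whose pathway yields glutamate. Prodh was at 0.772 to 0.818 CPM unstretched and 0.294 to 0.388 CPM under high stretch, with a log2 fold change of -1.24 (SE 0.253, edgeR adjusted p = 0.041). The median log2 fold change of the 76 was -0.0641. Without the unstretched replicate 3 of experiment 2, 11 of 76 passed (14.5%, with 7.77% of all genes), 5 higher and 6 lower, and without high-stretch replicate 1, high-stretch replicate 3 or unstretched replicate 1 none did, with 0.0755% to 0.628% of all genes. Under low stretch 11 of 85 passed (12.9%, with 5.45% of all genes), 2 higher and 9 lower, a count that was 3 (3.53%, with 0.998% of all genes) without unstretched replicate 3 of experiment 1 and 4 (4.71%, with 1.71%) without unstretched replicate 1.

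Neutral amino acid carriers outside the family had no call among 15 tested under high stretch and 3 among 17 under low stretch. Of all genes tested, 3.47% were called under high and 5.45% under low stretch. Slc7a5 (LAT1), which trades intracellular glutamine for leucine, had a log2 fold change of -0.83 (SE 0.247, adjusted p = 0.139) under high stretch and -0.78 (adjusted p = 0.00506) under low stretch. Slc43a2 (LAT4) had -0.91 (adjusted p = 0.0523) and -1.04 (adjusted p = 0.00569). Slc7a6, a heteromeric carrier subunit, had 0.61 (adjusted p = 0.187) and 0.63 (adjusted p = 0.0356). For these 3 genes, the ones of the list called under low stretch, the groups did not overlap in either experiment. The same held for 20.6% of all genes under high stretch and 15.3% under low stretch. The system A carriers Slc38a1 and Slc38a2 had 0.14 (adjusted p = 0.911) and 0.49 (adjusted p = 0.58) under high stretch. The cystine-glutamate exchanger Slc7a11 and the heavy chain Slc3a2 had -0.29 (adjusted p = 0.846) and -0.54 (adjusted p = 0.304).

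Among 24 genes for glutamate, glutamine and aspartate enzymes and carriers, 23 were tested in each comparison. Under high stretch 1 was lower, with 3.47% of all genes called. Under low stretch 3 were lower and 1 higher, with 5.45% of all genes called. Glutamine synthetase Glul and glutamate dehydrogenase Glud1 had log2 fold changes of 0.17 (adjusted p = 0.788) and 0.47 (adjusted p = 0.273) under high stretch. Abat, the enzyme that breaks down GABA, had -0.75 (adjusted p = 0.0585) under high and -0.79 (adjusted p = 0.0105) under low stretch. Gclc and Gclm, the subunits that start glutathione synthesis, had 0.67 (adjusted p = 0.0917) and 0.64 (adjusted p = 0.0655) under high stretch. Asparagine synthetase Asns had 0.42 (adjusted p = 0.557), and the serine synthesis genes Phgdh and Psat1 had -0.18 (adjusted p = 0.918) and 0.31 (adjusted p = 0.671).

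The amino acid stress response, of which Slc1a4 and Asns are known targets, had no call among 14 genes under high stretch (median log2 fold change -0.0163) and 1 lower call, Sesn2, under low stretch. Its regulator Atf4 had 0.38 (adjusted p = 0.357) and Trib3 -0.20 (adjusted p = 0.846) under high stretch. Of 24 glutamate receptor genes, 6 were tested under high stretch with no call, and 11 under low stretch with 2 lower. Beside the calls of both lists, 3.47% of all genes were called under high and 5.45% under low stretch. Grin1 had -0.33 (adjusted p = 0.87) under high stretch. The metabotropic receptor Grm5 was at or under 0.003 CPM in the mean of every group. Arl6ip5, the protein that binds Slc1a1 and restrains its transport, had -0.14 (adjusted p = 0.874) under high stretch, and none of the 6 tested genes of its list passed.

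**Figure D4:**
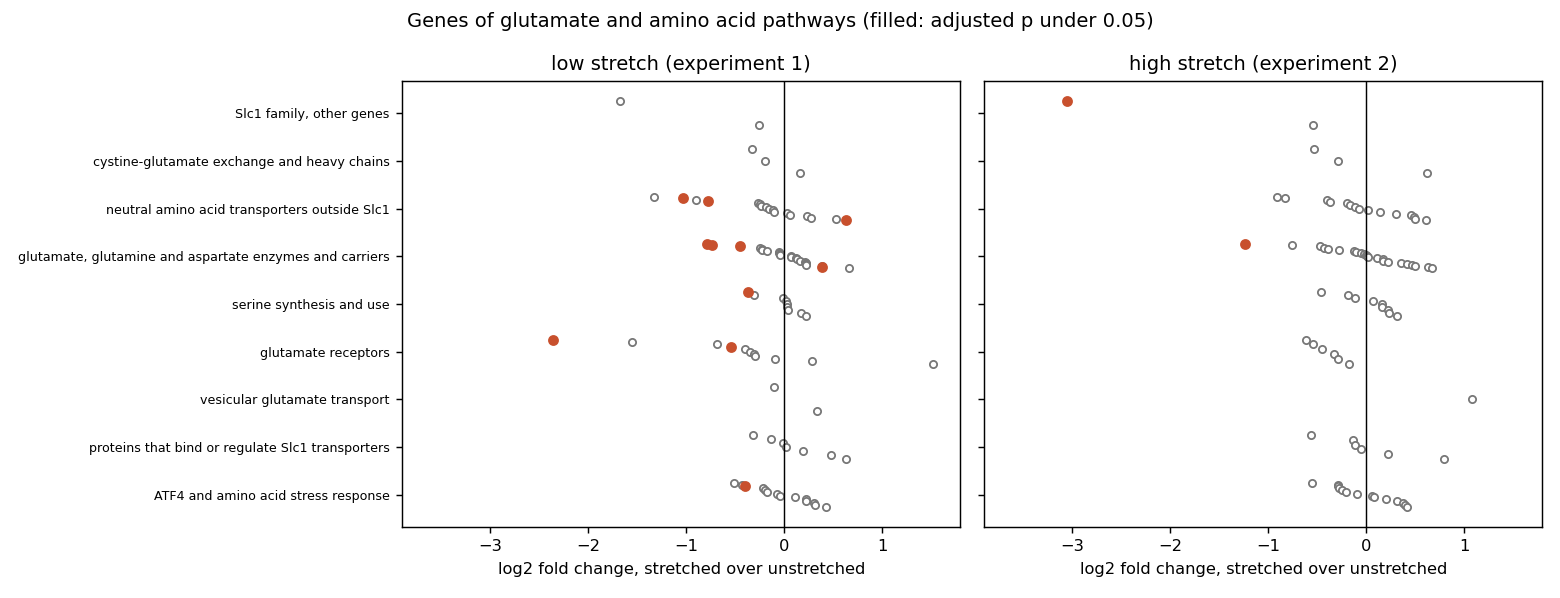
Log2 fold change under low stretch (left) and high stretch (right) of the tested genes of 9 lists, each point a gene and each row a list. Filled points passed an adjusted p of 0.05 in edgeR. There are 11 such genes under low stretch, 2 of them higher, and 2 under high stretch, both lower.

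The proximal tubule markers, 8 genes of the segment where Slc1a1 is best known, were lower in sum beside it. Their summed level was 947 to 1263 CPM unstretched and 327 to 481 CPM under high stretch, and 999 to 1377 CPM against 488 to 809 CPM in experiment 1. Of 8 markers, 3 reached 1 CPM in each group: Lrp2 (megalin), Cubn (cubilin) and Aqp1 (the water channel). Of 4 tested under high stretch, where 3.47% of all genes passed, 1 passed: Aqp1, with a log2 fold change of -3.62 (edgeR adjusted p = 0.0135). Slc5a2 (SGLT2) had -1.74 (adjusted p = 0.0532, groups apart), Lrp2 -0.39 (adjusted p = 0.733) and Cubn 0.41 (adjusted p = 0.752). Under low stretch, where 5.45% of all genes passed, Lrp2 and Slc5a2 of the 4 tested passed, both lower. The defining markers Miox, Slc27a2, Slc22a6 and Slc34a1 were at 0 or had a mean under 0.005 CPM in every group. The leukocyte sum, carried by Csf1r, was 23.8 to 26.2 CPM unstretched and 5.91 to 9.87 CPM under high stretch, with a log2 fold change of -2.02 for Csf1r (adjusted p = 0.00808). Cd68, the only other leukocyte marker above 1 CPM, went from a mean of 1.045 to 1.88 CPM (0.86, adjusted p = 0.165, groups apart), and Adgre1 and Cd3e were at 0. The podocyte sum overlapped, at 1648 to 2648 CPM unstretched and 2187 to 2898 CPM under high stretch. Of 8 podocyte markers tested 1 passed, the transcription factor Wt1, which fell by 2.36 (adjusted p = 0.0311). Podxl had -0.32 (edgeR adjusted p = 0.471) under high and -0.43 (adjusted p = 0.0762) under low stretch. Its groups were apart in both experiments, as were those of 10.7% and 7.47% of all genes in the lower direction. Actn4 had 0.43 (adjusted p = 0.517) and Synpo 0.01 (adjusted p = 0.994) under high stretch. The endothelial sum was 70.4 to 82.8 CPM unstretched and 42.8 to 54.9 CPM under high stretch. Nearly all of it was Ehd3, with a log2 fold change of -0.57 that did not pass (edgeR adjusted p = 0.133). The other 2 endothelial markers tested went the other way with groups apart, each under 1 CPM. Flt1 had 1.98 (adjusted p = 0.0982) and Pecam1 1.01 (adjusted p = 0.262). The mesangial and fibroblast sum overlapped between the groups, at 2561 to 7236 and 6546 to 10500 CPM. Most of it was Acta2, at a mean of 4626 CPM unstretched and 8974 CPM under high stretch (0.98, edgeR adjusted p = 0.269). Of its 6 genes tested 0 passed. With groups apart, Col1a1 (0.95, adjusted p = 0.0886) and Gata3 (0.41, adjusted p = 0.412) were higher and Col3a1 (-2.02, adjusted p = 0.0618) lower. Low-stretch calls were not limited to the tubule markers. There, 1 of 3 leukocyte markers tested passed, Csf1r (-1.51, edgeR adjusted p = 0.00739), and 1 of 4 endothelial markers, Ehd3 (-0.48, adjusted p = 0.0147). Of 6 mesangial and fibroblast markers 1 passed, Pdgfrb (-0.56, adjusted p = 0.0199), and of 9 podocyte markers 0. The part of all these marker genes in the Slc1a1 result was not tested.

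Genes were ranked by their likeness to each member, as Pearson's r over the 15 samples of log2 CPM centred within each experiment, among 12937 genes of at least 1 CPM. The points share libraries and the stretch step, so these values are a description. Closest to Slc1a1 were Nid2 (a basement membrane nidogen, r = 0.969), C1s1 (a complement protease, 0.968), C3 (the central complement component, 0.965), Car12 (a carbonic anhydrase, 0.964) and Pfkfb3 (a regulator of glycolysis, 0.964). All 5 were lower under high stretch, a direction that ranking over the same samples favours. C3 went from a mean of 16.9 to 0.415 CPM and Nid2 from 117 to 19.9 CPM. Most opposite were Gdnf (a neurotrophic factor of kidney development, -0.961), Paf1 (a transcription elongation factor, -0.958), Tpm1 (tropomyosin, -0.958), Fam171a1 (-0.958) and Ptprn (a secretory vesicle protein, -0.957). Of these 5, ranked on the same samples, Gdnf, Fam171a1 and Ptprn passed under high stretch, where 3.47% of all genes did. Tpm1 (edgeR adjusted p = 0.0523) and Paf1 (adjusted p = 0.587) did not pass.

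The other members had other nearest genes. Slc1a4 was closest to Asns (r = 0.91), Eva1c (0.908) and Hmcn2 (0.901), and none of these 3 passed in either comparison. Slc1a5 was closest to Hcn2 (0.942), Cxcl12 (0.929) and Mrpl46 (0.911). Slc1a2 was closest to Crybg1 (0.908), Pex7 (0.89) and Tent5c (0.878), and Slc1a3, at its few reads, to Il7 (0.884). Within the family, r with Slc1a1 was 0.838 for Slc1a7, 0.524 for Slc1a5, 0.46 for Slc1a6, -0.0615 for Slc1a2, -0.296 for Slc1a3 and -0.30 for Slc1a4.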

How the data were processed

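Polyadenylated RNA of 15 SVI samples was sequenced as stranded paired-end libraries, per the labels. Raw read counts per gene were deposited by the authors, for 55416 genes. The transcript table holds TPM values deposited by the authors for 140789 transcripts. Per the submitters' processing notes the tools were STAR 2.7.5c, featureCounts (Subread 2.0.0), Salmon 1.9.0 and DESeq2 1.38.3 and the build was mm39. The strand setting of the counting is not given in the sources used here. GENCODE M21 gave symbols to 52083 genes and matched 137189 transcripts. Being of another build, it gave no coordinates. The promoter windows are RefSeq's (GRCm38.p6).

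Depth was 172.2 M to 396.7 M counts per sample. Stretched and unstretched samples were compared within each experiment in edgeR 4.0.16 (R 4.3.3) with filterByExpr, TMM factors and the quasi-likelihood F test, Benjamini-Hochberg adjusted over all genes at 0.05. The difference between effects was a contrast over all 15 samples. The printed CPM used 1 TMM scaling over all samples. Transcript usage was tested with limma 3.58.1 on log2 values of each transcript over the rest of its gene (0.1 TPM added to both), for genes of at least 1 TPM and mean fractions from 0.05 to 0.95. Both procedures were tested on simulated data.

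The members and the gene lists were chosen with earlier results of these data known. Named genes were a preset list of family, transport, enzyme, stress response and receptor genes, plus up to 3 genes per list with the lowest p under high stretch among those called with at least 1 CPM, plus the nearest genes by correlation. Other genes, such as Prodh, markers, neighbours and genes called under low stretch, were named after their values were seen. Some listed genes are not reported here. Alternatives were DESeq2 1.42.0, RLE factors, other filters and pseudocounts, blocks on replicate number or on runs of neighbouring position codes, all 15 samples in 1 fit and each sample left out in turn.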

Additional observations from a re-analysis of the deposited data

How the results depend on the processing

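Slc1a1 was lower under high stretch in all 13 other fits, from -4.52 to -3.41 on the log2 scale with 1 sample left out and from -4.20 to -4.06 under the 7 other settings (adjusted p from 2.04e-13 to 0.0187). Of these settings, the replicate block and the block on neighbouring codes are the same fit in experiment 2 and are counted as 2. Slc1a1 was not called without high-stretch replicate 1 (-3.91) or replicate 3 (-4.36), which left 0 members called, so that count ranged from 0 to 1. The genes called under high stretch numbered 643 in the reported fit, 1403 with DESeq2, 1050 with no filter, 414 at a mean count of at least 100, 1488 with all 15 samples in one fit, and 14 to 1421 with 1 sample left out. Those under low stretch numbered 1181, and 2837 with DESeq2, 640 with all 15 samples in one fit and 220 to 1630 with 1 sample left out. Pathway genes called, counted after the data were seen, ranged from 0 to 11 under high stretch and from 3 to 12 under low stretch with 1 sample left out, and from 2 to 10 and 4 to 35 under the other settings. The share of all genes called moved with them. Under high stretch 0 of 76 came with 0.0755% and 0.488% of all genes, and 0 of 78 with 0.628%. Under low stretch 3 of 85 came with 0.998% and 35 of 85 (41.2%) with 28.2%.

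The labels do not say whether replicate numbers pair the samples. In experiment 1, deviations of same-numbered samples correlated at 0.365, -0.139 and -0.44. In experiment 2, where the numbers and the runs of neighbouring codes are the same pairs, they correlated at -0.163, 0.45 and 0.241. These values are too few to settle the pairing. With a replicate block, 1546 genes were called under high stretch, with Slc1a1 at -4.06, and 490 under low stretch (replicates 1 to 3 only). Runs of neighbouring position codes did go together in experiment 1. The 6 same-run pairs of a stretched and an unstretched sample correlated at 0.328 to 0.57, and the other 12 at -0.52 to -0.0521. Deviations were taken from the group mean, so positive same-run pairs pull the other pairs below 0, and the ranges are not independent. The grouping by runs is a hint from the data, since the labels do not say what the codes mark. A block on neighbouring codes, which in experiment 2 is the same block, gave 6106 genes and 2 members (Slc1a1 and Slc1a5) under low stretch and 3 genes, none a member, for the difference between the stretch effects, otherwise 0.

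Under low stretch Slc1a2 ranged from -0.373 to 0.0757 (without unstretched replicate 2) and Slc1a4 from -0.116 to 0.0987, being -0.0128, -0.0235 and -0.116 without low-stretch replicates 2 and 4 and unstretched replicate 3. These Slc1a2 and Slc1a4 values were small. The difference for Slc1a3, -0.659 (SE 1.02) in the reported fit, ranged from -1.107 to 0.789, the latter without unstretched replicate 3 of experiment 2. No member transcript was called for usage except 3 under low stretch with no filter, all of Slc1a1, which lies near the pseudocount. The causes were not tested. Slc1a3, at 0 to 23 reads, is beyond what this depth resolves.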

Other observations

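Genes beside the members on the chromosome were examined by position. Cd44, a hyaluronan receptor next to Slc1a2, had a mean of 58.6 ± 15.1 CPM (SD, n = 3) unstretched and 162 ± 33.3 CPM (SD, n = 3) under high stretch, and rose by 1.48 on the log2 scale (SE 0.263, edgeR adjusted p = 0.025). Under low stretch it was 0.87 (SE 0.293, adjusted p = 0.106), from 85.9 ± 28.3 CPM (SD, n = 3) to 158 ± 47.3 CPM (SD, n = 6). Slc1a2 itself did not pass under high stretch, and its low-stretch values are a description. Podn, beside Slc1a7, was at 224 to 264 CPM unstretched and 30.4 to 64.4 CPM under high stretch. Ap2s1, a clathrin adaptor subunit beside Slc1a5, had -0.14 (adjusted p = 0.939) under high stretch.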
